A study of Mus musculus with 16 samples.

Results

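The transcripts of 40 genes of the cell cycle were followed in the livers of growing mice. The members were the rows of the processed table whose symbol was on a list of genes of S phase and mitosis, and all 40 were found among the 18209 named genes and passed the filter on low values, with 15781 genes tested in all. They were grouped by role as 9 genes of replication licensing and the helicase, 5 of DNA synthesis and nucleotide supply, 7 cyclin genes and their partners, 9 of the mitotic kinases, checkpoint and anaphase promotion, 8 of the spindle and kinetochore, and 2 of the chromosome surface and topology. RNA-sequence analysis covered 16 livers of mice at 20 days of age, labelled as male, and there were 4 genotypes of 4 mice. The genotype Trsp fl/fl is called control here, Trsp fl/fl::AlbCre is called Trsp knockout, Keap1 C226S&C613S homo::Trsp fl/fl is called Keap1 mutant, while Keap1 C226S&C613S homo::Trsp fl/fl::AlbCre is called compound mutant. All 16 mice carried floxed alleles of Trsp, the gene of the selenocysteine tRNA that is needed to make selenoproteins. AlbCre is Cre recombinase driven by the albumin promoter, so that the deletion is aimed at hepatocytes and not at blood, endothelial or Kupffer cells. The Keap1 alleles were homozygous for serine in place of a pair of cysteines through which KEAP1, the repressor of NRF2, senses oxidative stress.

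Before a cell divides, the MCM complex is loaded on DNA and licenses it, S phase copies the DNA, and mitosis separates the copies under the control of cyclins and mitotic kinases. Most of the genes that serve these steps are transcribed only in cycling cells, in waves controlled by E2F, RB family and MuvB complexes. The liver of a suckling mouse still grows by hepatocyte division, and it also keeps islands of dividing blood precursors that are lost as the marrow takes over, so whole-liver RNA cannot assign these transcripts to a cell type. In bulk RNA fewer cycling cells and less RNA per cycling cell cannot be told apart.

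The recovered reads ranged from 11386715 to 19164113 per library, and members had from 0 to 1505 reads in a library. The hepatocyte markers were high throughout, with Alb at 19.23 to 20.68 on the log2 scale of the table. The deletion of Trsp could not be checked directly, since no row of the table carries that name. The paper reports lower GPX1 and GPX4 protein, and lower transcripts of selenoproteins such as Gpx1 and Selenow, in both genotypes with AlbCre. Those transcripts were not followed here. The library labelled compound mutant replicate 1 had 28799 reads of Xist, the transcript of the inactive X chromosome, where the other 15 libraries had 22 to 50. On 4 Y-linked genes it had 2 reads in all, where the rest had 1830 to 3066. It therefore goes against its label, and for comparisons with the compound mutant the medians and the named genes with the lowest p-values are also given without it. The labels number the samples within a genotype and name no litter or library batch, so p-values measure only the spread between these samples.

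The level of the cell cycle genes differed more between mice of the same genotype than between the genotype means. The level used here is the deposited value, log2 of the size-factor normalized read count plus 4, averaged over the 40 members. In control livers this mean level was 7.69, 7.27, 6.85 and 6.59 in replicates 1 to 4. In Trsp knockout livers it was 6.02, 5.54, 7.78 and 7.87, so this genotype held the pair of highest libraries and 2 of the 3 lowest. In Keap1 mutant livers it was 6.11, 6.66, 6.80 and 6.72. In compound mutant livers it was 6.67, 6.94, 6.71 and 5.28, the last being the lowest of the 16. The ranges of the 4 genotypes all overlapped. The highest library, Trsp knockout replicate 4, lay 2.59 above the lowest on the log2 scale, or 6.0-fold. As mean ± SD (n = 4 each), the levels were 7.1 ± 0.48 in control, 6.8 ± 1.2 in Trsp knockout, 6.57 ± 0.31 in Keap1 mutant and 6.4 ± 0.75 in compound mutant livers.

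**Figure D1:**
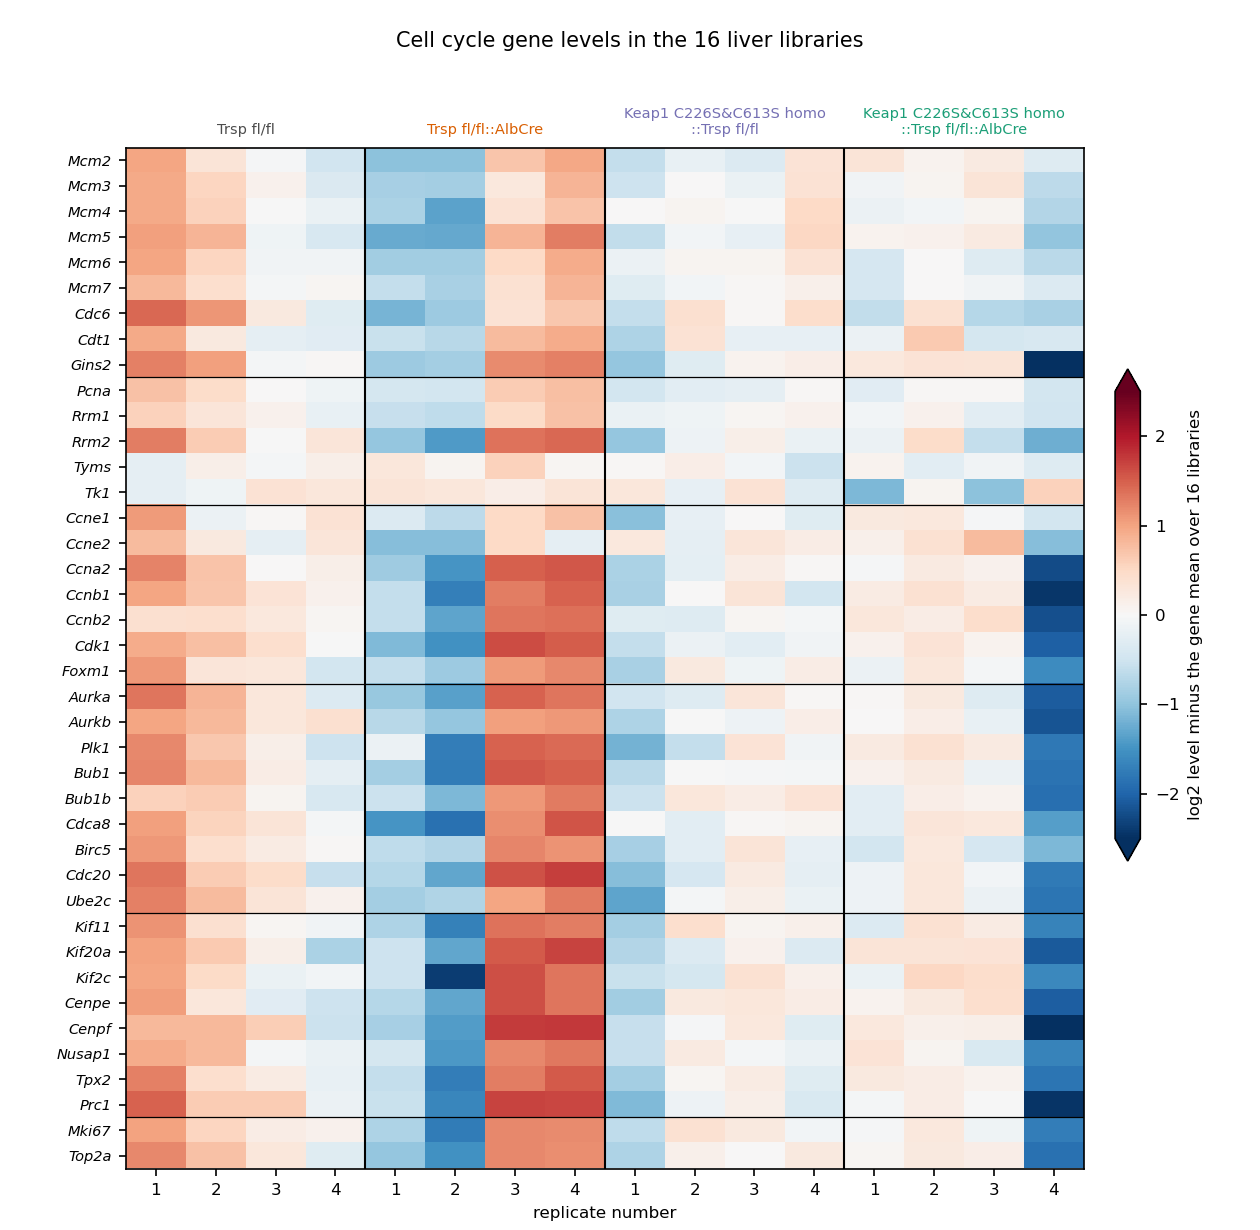
Heatmap of the 40 cell cycle genes (rows, in the order of the 6 roles, divided by thin lines) in 16 liver libraries (columns, by genotype and replicate number). Colour is the log2 level minus the mean of that gene over the 16 libraries, limited at 2.5 either way. Trsp knockout replicates 3 and 4 are high and replicates 1 and 2 low for nearly every gene, compound mutant replicate 4 is low, and Tyms and Tk1 do not follow the pattern.

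This spread was wide beside that of all genes tested. The median SD between mice of 1 genotype, pooled over the 4 genotypes, was 0.887 for the members and 0.299 for all genes tested, on the log2 scale. It was 1.345 for the members in Trsp knockout livers against 0.271 for all genes, and 0.42 against 0.217 in Keap1 mutant livers. Of the 40 members, 29 were among the 10% of tested genes with the widest pooled SD. The share of the variance over the 16 libraries that lay between genotypes had a median of 13.6% for the members and of 26.7% for all genes. With 4 genotypes such a share is positive by sampling alone, so neither value measures a genotype effect by itself. Cenpf, a kinetochore protein that accumulates in G2, had the widest SD of the members at 1.193, and Tyms, which makes thymidylate, had the narrowest at 0.233.

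The members varied together from mouse to mouse. Of the 40, 35 had a Pearson r over 0.8 with the mean of the other members over the 16 libraries, and 38 did so after the genotype means were removed. These correlations are descriptions, since the genes share the same 16 libraries. The exceptions after removal of the genotype means were the genes of thymidine supply, Tk1 (r = -0.43), the salvage kinase, and Tyms (r = 0.12). Ccne2, a cyclin that drives entry into S phase, had an r of 0.67 over the libraries and of 0.81 within genotypes. The step per log2 unit of the other members was small for Pcna (slope 0.53), the sliding clamp of DNA polymerase, and for Mcm7 (slope 0.54), and large for Prc1 (slope 1.52).

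The promoters of the members were compared for short words that are known from cell cycle genes, as a description of what members that move together share in sequence. RefSeq promoter windows of GRCm38.p6, with 250 bases before and 50 after the annotated start, were at hand for 32 of the 40 members and did not include Mcm4, Gins2, Ccne2, Ccna2, Foxm1, Aurkb, Kif20a or Tpx2. Words were searched on both strands. The cell cycle homology word, bound by MuvB, was TTTGAA or its variant TTCGAA. The word of NF-Y was CCAAT. The E2F words were TTCCCGC, its variant TTGGCGC or the variant TTCGCGC. E2F words may overlap each other, and TTCGAA reads the same on both strands. The cell cycle homology word was held by 17 of 32 member promoters, CCAAT by 24 and an E2F word by 10. In the promoters of 27025 genes in the same table the shares were 21.7%, 41.1% and 9.2%. The cell cycle homology word was in 7 of 8 promoters of the mitotic kinase group and in 0 of 5 of the DNA synthesis group. An E2F word was in 6 of 7 promoters of the licensing group and in 0 of 8 of the mitotic kinase group. In other cell cycle genes, an E2F word was in 17 of 23 S phase promoters and in 7 of 27 G2 and M phase promoters, and the cell cycle homology word in 7 and 19 of them. In the 250 bases before the start alone, the cell cycle homology word was in 12 member promoters (19.6% of all genes) and in 3 of 8 of the mitotic kinase group. In Aurka, Plk1, Bub1 and Cdca8 of that group it lay only after the start, and in Birc5 it was absent. An E2F word was in 8 member promoters in those 250 bases (7.68% of all genes). It was there in 4 of 7 promoters of the licensing group and in 0 of 8 of the mitotic kinase group. In Mcm3 and Cdt1 the E2F words lay only after the start.

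Of the promoters, 8 are shown, of genes used early (Mcm5, Mcm6), of genes used late (Cdk1, Cdc20, Kif11, Top2a) and of the genes that varied apart (Tyms, Tk1). Each line gives the 150 bases before the start, 5′ to 3′ on the strand of the gene in GRCm38.p6, with words of the above kinds in capitals. A word on the opposite strand appears as its reverse complement, such as ATTGG for CCAAT.
Mcm5, helicase subunit, chr8:75109359-75109508, plus strand: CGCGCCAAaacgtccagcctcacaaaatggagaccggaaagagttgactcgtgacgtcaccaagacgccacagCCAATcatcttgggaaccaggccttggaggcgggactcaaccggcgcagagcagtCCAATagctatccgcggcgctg
Mcm6, helicase subunit, chr1:128359706-128359855, minus strand: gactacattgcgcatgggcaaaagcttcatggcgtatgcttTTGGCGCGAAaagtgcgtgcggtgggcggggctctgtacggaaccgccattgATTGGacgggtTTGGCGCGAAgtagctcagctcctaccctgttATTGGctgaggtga
Cdk1, the mitotic cyclin-dependent kinase, chr10:69352913-69353062, minus strand: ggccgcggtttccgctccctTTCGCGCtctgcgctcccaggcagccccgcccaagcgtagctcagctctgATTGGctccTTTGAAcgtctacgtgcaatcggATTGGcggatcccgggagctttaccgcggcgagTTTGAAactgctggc
Cdc20, activator of the anaphase-promoting complex, chr4:118437344-118437493, minus strand: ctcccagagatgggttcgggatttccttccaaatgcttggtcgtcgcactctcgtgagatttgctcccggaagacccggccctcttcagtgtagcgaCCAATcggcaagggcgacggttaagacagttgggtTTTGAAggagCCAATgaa
Kif11, the motor that pushes spindle poles apart, chr19:37376232-37376381, plus strand: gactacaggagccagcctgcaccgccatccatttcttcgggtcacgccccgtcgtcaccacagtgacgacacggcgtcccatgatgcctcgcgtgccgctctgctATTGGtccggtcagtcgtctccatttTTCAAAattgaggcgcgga
Top2a, the topoisomerase that untangles chromosomes, chr11:99024190-99024339, minus strand: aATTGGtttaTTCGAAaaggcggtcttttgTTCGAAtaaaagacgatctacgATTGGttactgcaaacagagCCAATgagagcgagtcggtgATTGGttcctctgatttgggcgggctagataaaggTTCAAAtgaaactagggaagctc
Tyms, thymidylate synthase, chr5:30073626-30073775, minus strand: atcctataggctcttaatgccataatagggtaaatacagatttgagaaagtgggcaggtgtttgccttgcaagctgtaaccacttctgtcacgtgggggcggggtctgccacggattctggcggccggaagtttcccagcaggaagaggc
Tk1, thymidine kinase, chr11:117826015-117826164, minus strand: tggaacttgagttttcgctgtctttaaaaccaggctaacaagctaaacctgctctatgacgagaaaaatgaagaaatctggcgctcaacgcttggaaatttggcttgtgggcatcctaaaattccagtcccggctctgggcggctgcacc
The windows of Mcm5 and Mcm6 held E2F words and CCAAT, and no cell cycle homology word. In Cdk1 the cell cycle homology word began 71 and 15 bases before the start, in Cdc20 18 bases before it and in Kif11 19 bases before it, and each of the 3 had CCAAT upstream of it. Top2a had 4 cell cycle homology words and 6 CCAAT words in its window. No word of these kinds was found in the windows of Tyms and Tk1, nor in those of Ccne1, Birc5 and Nusap1, which varied with the other members.

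Of the genes of replication licensing and of the helicase, 8 ranged from 3.24-fold (Mcm7) to 8.86-fold (Cdc6) between the 16 livers, and Gins2 reached 0. Mcm2, a subunit of the helicase, had normalized read counts of 352, 223, 174 and 127 in control, 85.0, 85.2, 291 and 350 in Trsp knockout, 117, 155, 139 and 225 in Keap1 mutant, and 224, 188, 208 and 141 in compound mutant livers. The lowest and nearly the highest value were thus found in the same genotype, and all groups overlapped. Mcm5 ranged from 78.7 in Trsp knockout replicate 2 to 488 in Trsp knockout replicate 4. Cdc6, which loads the helicase on origins, ranged from 7.09 in Trsp knockout replicate 1 to 62.8 in control replicate 1. Gins2, a part of the active helicase, had 63.8, 53.5, 23.4 and 24.9 in control livers and 0 in compound mutant replicate 4, where a count of 0 allows up to 3 reads among 15480590; the other 3 compound mutant libraries had 29.8 to 31.7.

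The group of DNA synthesis and nucleotide supply was the narrowest and held both genes that varied apart. Pcna had 841, 690, 503 and 464 in control, 370, 363, 789 and 853 in Trsp knockout, 365, 420, 432 and 514 in Keap1 mutant, and 412, 511, 516 and 366 in compound mutant livers, a range of 2.35-fold in all. Rrm2, the S phase subunit of ribonucleotide reductase, ranged 7.61-fold, from 64.3 to 489, both in Trsp knockout livers. Tyms stayed between 288 and 627. In the Trsp knockout livers Tyms had 508, 442, 627 and 436, so that its replicates 1 and 2 were not low as those of Rrm2 were. Tk1 had 319, 347, 484 and 455 in control, 469, 454, 421 and 468 in Trsp knockout, 457, 323, 484 and 300 in Keap1 mutant, and 170, 396, 180 and 559 in compound mutant livers. The highest Tk1 value was therefore in compound mutant replicate 4, the library with the lowest mean member level, and the lowest was in the library with Xist reads.

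The mitotic cyclins, their partner kinase and the mitotic genes spread over wider ranges. Cdk1 had 152, 135, 106 and 78.3 in control, 34.4, 24.9, 250 and 230 in Trsp knockout, 50.5, 70.0, 65.3 and 73.6 in Keap1 mutant, and 84.8, 101, 83.4 and 16 in compound mutant livers, a 15.6-fold range. Ccnb1, its mitotic cyclin, ranged 21.9-fold, from 8.0 in compound mutant replicate 4 to 175 in Trsp knockout replicate 4. Foxm1, a transcription factor of the G2 and M phase genes, ranged 7.96-fold and Ccne1, a G1/S cyclin, 5.39-fold. Ccne2 ranged 3.89-fold, so both E-type cyclins spanned less than the mitotic ones.

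Among the mitotic kinases, Plk1 had 108, 72.8, 49.7 and 29.8 in control, 39.5, 10.5, 130 and 126 in Trsp knockout, 17.4, 27.8, 57.1 and 41.1 in Keap1 mutant, and 52.2, 59.1, 52.2 and 10 in compound mutant livers. Aurkb, the kinase of the chromosomal passenger complex, ranged 13.8-fold, and Birc5, survivin, of the same complex, 5.62-fold. Of the spindle genes, Kif11 ranged 9.13-fold, Prc1, which bundles the midzone, 23.7-fold and Cenpf 32.9-fold, from 12.0 in compound mutant replicate 4 to 395 in Trsp knockout replicate 4. Kif2c, a microtubule depolymerase, had 1 read in a library, and its 61.3-fold range rests on that count.

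Mki67, the antigen Ki-67 that coats mitotic chromosomes and is the usual marker of cycling cells, had 1333, 956, 753 and 711 in control livers. It had 381, 193, 1509 and 1481 in Trsp knockout, 419, 855, 772 and 623 in Keap1 mutant, and 639, 780, 606 and 195 in compound mutant livers. The Trsp knockout thus held the lowest and the pair of highest values, and the groups overlapped. Top2a followed with 792, 568, 415 and 276 in control and 173, 117, 792 and 765 in Trsp knockout livers.

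**Figure D2:**
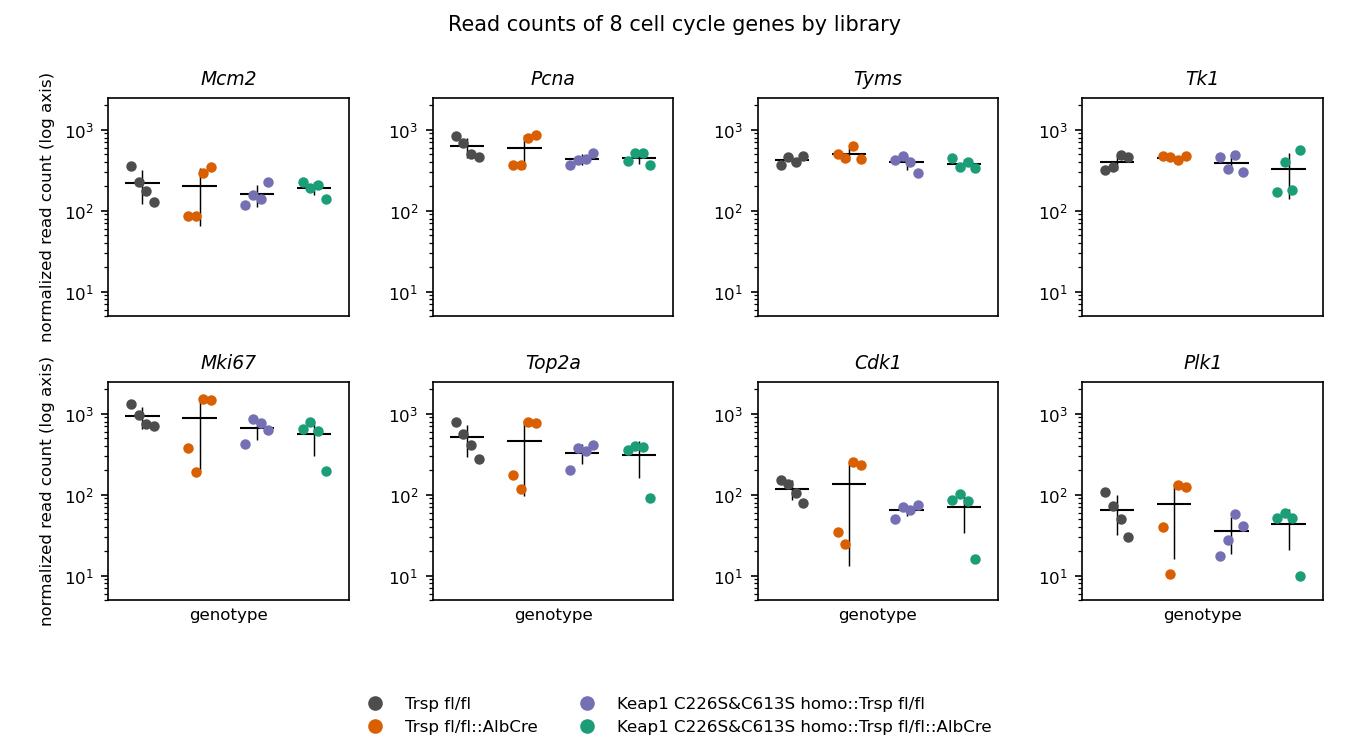
Normalized read counts (log axis) of 8 cell cycle genes in the 16 libraries, with each point a library, a horizontal line at the mean of 4 and a vertical line of 1 SD either way. Trsp knockout livers split into a low and a high pair for Mcm2, Mki67, Top2a, Cdk1 and Plk1, from 193 to 1509 for Mki67, whereas Tyms stayed between 288 and 627.

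The libraries also differed in the balance of early and late genes. The mean log2 level of the licensing group minus that of the mitotic kinase group was 2.18 in compound mutant replicate 4 and 1.62 in Trsp knockout replicate 2, where the members were lowest. It was 0.60 and 0.85 in Trsp knockout replicates 3 and 4, where they were highest, and 1.01 to 1.59 in the other 12 libraries. The mitotic genes thus spanned a wider range than the licensing genes, from 4.0 to 7.13 against 6.09 to 8.08.

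In Trsp knockout compared to control livers, which addresses the effect of selenoprotein loss in hepatocytes, no member was called. A call took a log2 difference beyond 1 in size together with a limma p-value under 0.01 after adjustment over the 15781 genes. Among these genes 0.19% passed as higher and 0.0253% as lower. At an unadjusted p-value under 0.05, 0 members were lower and 0 higher, where 5.41% and 5.62% of all genes were, and limma voom on the recovered reads also called 0. Of the members, 36 were below and 4 above 0, where 47.7% of all genes were above 0. Members varied together from mouse to mouse, so such counts of signs, here and below, are not separate observations. The groups of 4 overlapped for every member, where 3.4% and 2.62% of all genes were higher and lower without overlap, and the median log2 difference was -0.339 against -0.015 for all genes. The lowest was Cdc6, at -0.88 (95% interval -1.86 to 0.11, limma adjusted p = 0.52), and the highest was Tyms at 0.24 (-0.10 to 0.58, limma adjusted p = 0.61). Mki67 differed by -0.51 (-1.72 to 0.70, limma adjusted p = 0.78). Cdk1 differed by -0.39 (-1.77 to 0.98). The median SE of the members was 0.558, against 0.209 for all genes, and differences within the members' intervals were not excluded here. Without Trsp knockout replicate 2 the median turned to 0.145, and without replicate 4 it was -0.745.

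Between compound mutant and Keap1 mutant livers, the same deletion on the Keap1 mutant background, 0 members were called, where 0.0697% of all genes were called higher and 0.101% lower. At an unadjusted p-value under 0.05, 0 members were higher or lower, where 6.52% and 7.08% of all genes were, and limma voom called 0. Of the members, 34 were below 0, where 49.3% of all genes were above it. No member's groups were free of overlap, where 3.97% and 3.71% of all genes were so, and their median was -0.185 against -0.005 for all genes. Bub1b, a spindle checkpoint kinase, was lowest at -0.55 (-1.67 to 0.57, limma adjusted p = 0.72) and Ccne1 highest at 0.39 (-0.35 to 1.12, limma adjusted p = 0.69). Mki67 differed by -0.38 (-1.59 to 0.83). The direction rested on 1 mouse, since the median was 0.235 without compound mutant replicate 4, and Mki67 then differed by 0.057. Without the library with Xist reads the median was -0.278, Bub1b was at -0.62, Ccne1 at 0.31 and Mki67 at -0.51, and 0 members were called.

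The Keap1 mutant was also compared with control livers, that is with selenoproteins present in both. All 40 members were lower in the Keap1 mutant, with a median of -0.515 against -0.006 for all genes, and 48.9% of all genes were above 0. As the members varied together between mice, these 40 signs are not separate observations. None was called by limma or limma voom, and 0 had an unadjusted p-value under 0.05, where 4.32% and 4.75% of all genes were higher and lower at that level. Of all genes 0.00634% of all genes were called in each direction. Prc1 was lowest at -1.01 (-2.51 to 0.49, limma adjusted p = 0.70), and Tk1 highest at -0.05 (-0.69 to 0.60). Mki67 differed by -0.49 (-1.70 to 0.72). The groups of 4 did not overlap for Cdk1 and Aurkb, 2 of 40 members, where 3.04% of all genes were lower and 3.19% higher without overlap. Cdk1 was at least 78.3 in control and at most 73.6 in Keap1 mutant livers, with a difference of -0.80 (-2.17 to 0.58, limma adjusted p = 0.75). Aurkb had 103, 91.0, 61.9 and 67.1 in control and 27.8, 49.9, 45.7 and 56.4 in Keap1 mutant livers, with a difference of -0.80 (-1.91 to 0.30, limma adjusted p = 0.68). The median without control replicate 1, the library with the highest control level, was -0.325. This comparison and that of Trsp knockout with control share the same 4 control livers.

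Compound mutant livers were compared with Trsp knockout livers, which by their labels differ in Keap1 alone. By limma and by limma voom 0 members were called, where 0.114% of all genes were called higher and 0.456% lower, and 36 members were below 0 with a median of -0.485 against 0.006, where 50.7% of all genes were above 0. The groups overlapped for all 40, where 4.53% and 4.08% of all genes did not overlap. At an unadjusted p-value under 0.05, 2 members were lower, which is 2 of 40 beside 9.15% of all genes, and 0 were higher beside 8.45%. These were the thymidine genes, Tyms at -0.39 (-0.73 to -0.05, limma adjusted p = 0.21) and Tk1 at -0.65 (-1.29 to -0.003, limma adjusted p = 0.28). Tyms had 448, 350, 395 and 334 in compound mutant livers, which overlapped the Trsp knockout values in 1 library, that with Xist reads. Without that library Tyms differed by -0.47 and Tk1 by -0.40 (-1.02 to 0.22), so that the interval of Tk1 then spanned 0, and the median of the members was -0.595. Cenpf was lowest at -0.91 (-2.49 to 0.68, limma adjusted p = 0.56) and Ccne2 highest at 0.52 (-0.30 to 1.34, limma adjusted p = 0.51). Without the library with Xist reads these were -1.19 and 0.49. Without compound mutant replicate 4 the median was -0.057, and without Trsp knockout replicate 2 it was -0.979.

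The difference between the Trsp knockout effects with and without the Keap1 substitutions was tested as an interaction in limma. It was called for 0 members, where 0.0317% of all genes were called more positive and 0.0253% more negative on the Keap1 mutant background, and 0 members had an unadjusted p-value under 0.05, where 5.46% and 5.29% of all genes had, or were called by limma voom. The median was 0.161, from -0.60 for Tk1 to 0.67 for Ccne2, and 28 of 40 were positive, where 50.2% of all genes were. Without the library with Xist reads Tk1 was at -0.35 and Ccne2 at 0.64. The median was 0.014 without that library, 0.559 without compound mutant replicate 4 and -0.330 without Trsp knockout replicate 2. For Mki67 the interval of the interaction was -1.59 to 1.83.

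**Figure D3:**
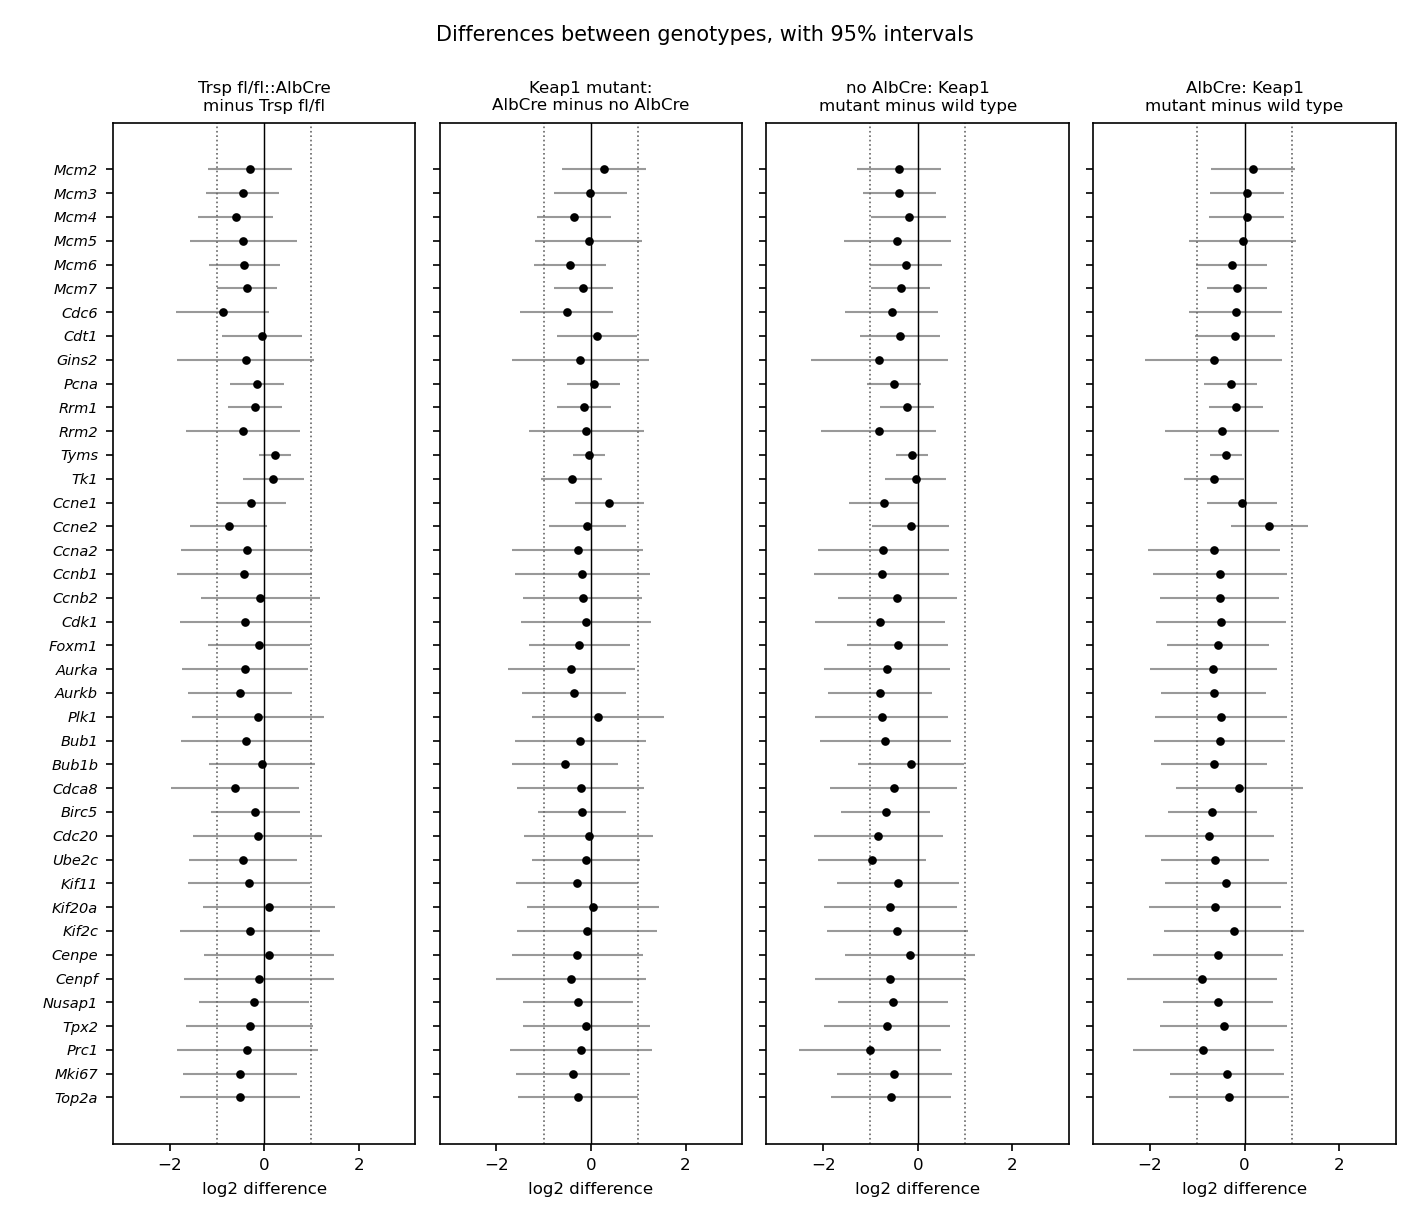
Log2 differences of the 40 cell cycle genes in 4 comparisons, with 95% intervals from limma (grey bars) and dotted lines at a change of 1 either way. Every interval spans 0 except those of Tyms and Tk1 in the right panel, at -0.39 and -0.65, and 40 of 40 points lie left of 0 in the third panel. The members vary together, so the points of a panel are not separate observations.

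The cell content of the libraries was described by lists of marker genes. Of 24 erythroid markers 23 were in the table, and 16 were tested. Their mean log2 level was 7.67, 7.91, 7.35 and 8.55 in control, 6.50, 6.84, 6.96 and 6.91 in Trsp knockout, 6.81, 7.15, 7.10 and 7.14 in Keap1 mutant, and 8.65, 7.28, 6.86 and 6.66 in compound mutant livers. Control livers did not overlap with Trsp knockout or Keap1 mutant livers. The summed normalized counts of the list were 34440 to 65187 in control, 15056 to 35471 in Trsp knockout, 13319 to 25895 in Keap1 mutant and 15783 to 97120 in compound mutant livers. In Trsp knockout against control 14 of the 16 were below 0, with a median of -1.152, and 12 of 16 were lower at an unadjusted p-value under 0.05, beside 5.41% of all genes. A single one was called, Sptb, the erythroid spectrin, at -1.62 (limma adjusted p = 0.0084), a call held in 8 of 28 alternatives. None of the listed genes in the table, erythroid or other, had 0 reads in 8 or more libraries. In the compound mutant the list rested on the library with Xist reads: its median against Trsp knockout was 0.551 with that library and 0.090 without it, and against Keap1 mutant 0.241 and -0.043. For the interaction it was 1.850 and 1.119.

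The erythroid and the cell cycle levels ranked the livers alike in part. Trsp knockout replicates 3 and 4, the highest of the 16 in cell cycle level, had the highest erythroid levels of their genotype, 6.96 and 6.91 against 6.50 and 6.84, although these lay below every control liver. Keap1 mutant replicate 1 (6.81) and compound mutant replicate 4 (6.66) had the lowest erythroid and the lowest cell cycle level of their genotypes. Other livers did not follow. Control replicate 4 had the highest erythroid level of its genotype and the lowest cell cycle level. The library with Xist reads had the highest erythroid level of all at 8.65, and its cell cycle level of 6.67 was among the middle ones. Over the 16 libraries, the log2 level of Mki67 and the erythroid mean had a Pearson r of 0.33 (permutation p = 0.21) and a Spearman rho of 0.51 (permutation p = 0.046). Among 11 marker lists compared in this way, the adjusted values were 0.56 for r and 0.51 for rho. Without the 2 libraries farthest from the median erythroid level r was 0.56, and after removal of the genotype means it was 0.29. With the erythroid mean as a covariate in the fit, the median of the members was 0.112 for Trsp knockout against control and -0.227 for Keap1 mutant against control, with 0 members called. Since control livers did not overlap with either genotype in erythroid level, these values extrapolate and cannot separate erythroid content from genotype.

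**Figure D4:**
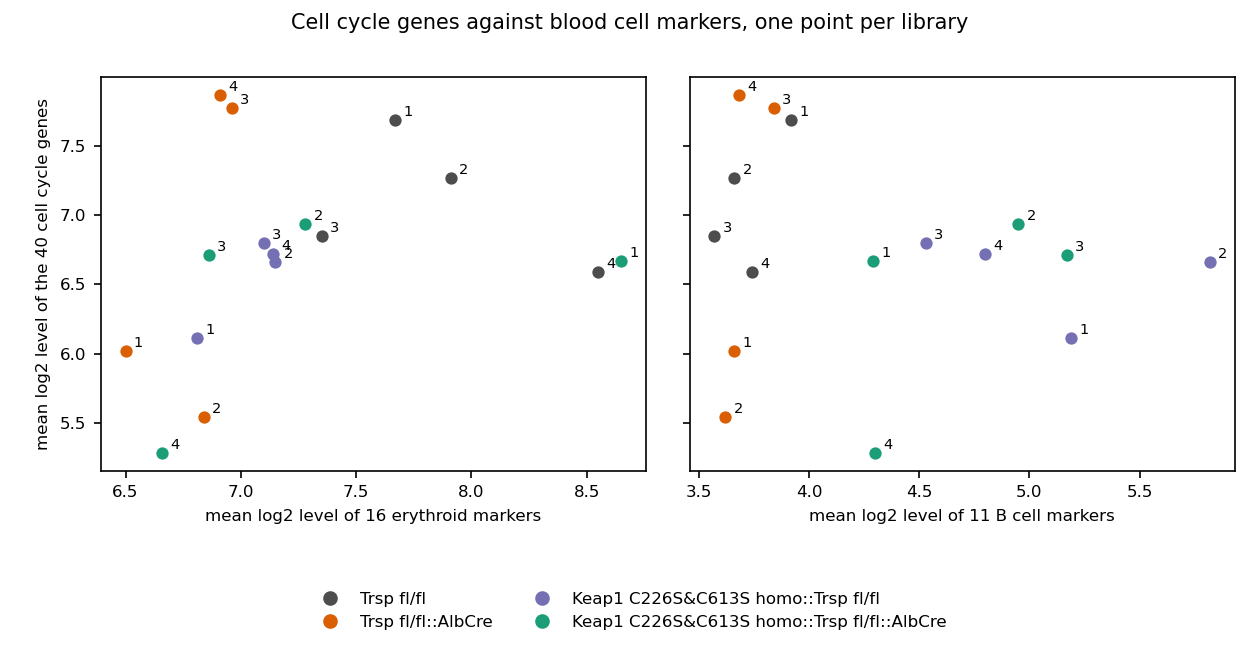
Mean log2 level of the 40 cell cycle genes against that of 16 erythroid markers (left) and 11 B cell markers (right), with each point a library, the colour its genotype and the number its replicate. Trsp knockout replicates 3 and 4 reach 7.78 and 7.87 at erythroid levels under 7.0, and the library of compound mutant replicate 1 lies at an erythroid level of 8.65.

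Markers of B cells and of granulocyte precursors, which also arise from dividing precursors, had medians above 0 with the Keap1 substitutions, where the medians of the members were below 0. Of 15 B cell markers 11 were in the table, and Vpreb1, Igll1, Rag2 and Dntt were not, so these could not be followed. The 11 summed to 109 to 162 normalized counts in control and 122 to 152 in Trsp knockout livers. They summed to 241 to 626 in Keap1 mutant and 208 to 415 in compound mutant livers. In Keap1 mutant against control all 11 were above 0, with a median of 1.279, where the median of the cell cycle genes was -0.515. None was called, and 9 of 11 were higher at an unadjusted p-value under 0.05, beside 4.32% of all genes. Rag1, which cuts antigen receptor genes in lymphocyte precursors, was highest at 2.55 (limma adjusted p = 0.044, from 0.51 to 4.08 over 27 alternatives). The 10 granulocyte markers tested had a median of 2.025 in compound mutant against Trsp knockout livers, where that of the cell cycle genes was -0.485, and of 2.132 without the library with Xist reads. None was called, and 9 of 10 were higher at an unadjusted p-value under 0.05, beside 8.45% of all genes. Mki67 had an r of -0.05 with the B cell level (permutation p = 0.86) and of -0.10 with the granulocyte level (permutation p = 0.71) over the 16 libraries. After removal of the genotype means r was 0.3 for B cells, beside 0.29 for the erythroid markers, and 0.12 for granulocytes. With the B cell level as a covariate the median of the members was -1.259 for Keap1 mutant against control. The mean log2 B cell level was at most 3.92 in control and at least 4.53 in Keap1 mutant livers. This fit therefore extrapolates and cannot separate B cell content from genotype. The part of these cells in the result was not tested.

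The other marker lists gave no relation with Mki67 that passed adjustment. The highest r were 0.46 for Kupffer cells (permutation p = 0.073, adjusted 0.49) and 0.44 for T and NK cells (permutation p = 0.09, adjusted 0.49), followed by 0.34 for stellate cells, 0.30 for cholangiocytes, 0.24 for endothelial cells and 0.02 for megakaryocytes. Hepatocyte markers had an r of -0.25 and those of immature hepatocytes of -0.08. After removal of the genotype means r was 0.58 for T and NK cells, 0.48 for Kupffer cells and 0.4 for endothelial cells. It was then 0.33 for stellate cells, 0.23 for cholangiocytes, 0.06 for megakaryocytes, 0.18 for immature hepatocytes and -0.39 for hepatocytes. These values within genotypes were not tested. The Kupffer cell markers summed to 7053 to 14453 in control, 8188 to 14091 in Trsp knockout, 8947 to 20759 in Keap1 mutant and 6005 to 12836 in compound mutant livers, and compound mutant replicate 4 was lowest on the log2 scale at 8.88. Immature hepatocyte genes had a median of 1.387 in Keap1 mutant against control and of 2.610 in compound mutant against Trsp knockout livers, with Igf2, the fetal growth factor, at 3.58 (limma adjusted p = 0.034) in the latter and 0 called. Without the library with Xist reads that median was 2.511 and Igf2 was at 3.28 (limma adjusted p = 0.11). The summed levels of endothelial markers stayed within 8074 to 12221.

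The most abundant genes of each marker list were also followed singly. Hbb-bs, an adult beta globin, had log2 levels of 13.35 to 14.54 in control and 12.36 to 13.55 in Trsp knockout livers, and Hba-a2, an alpha globin, 13.40 to 14.14 and 12.00 to 13.36. In the library with Xist reads Hbb-bs reached 15.15. S100a9 and S100a8, calprotectin of granulocytes, ranged from 6.04 to 7.38 and from 5.82 to 6.86 in Trsp knockout and from 7.67 to 9.70 and from 7.44 to 9.25 in compound mutant livers, without overlap. Of all genes 4.53% were higher without overlap in compound mutant against Trsp knockout livers. Cd79b, of the B cell receptor, ranged from 4.51 to 5.02 in control and from 5.20 to 6.07 in Keap1 mutant livers, whereas Cd22, a B cell lectin, overlapped between all genotypes. In Keap1 mutant against control livers 3.19% of all genes were higher without overlap. Globins and calprotectin are also carried by mature blood cells, which do not divide. The leading genes of the other lists, Ahsg, Gpc3, Itgb3, Clec1b, Cd8a, Gzma, Cd5l, Csf1r, Stab2, Kdr, Col3a1, Reln, Spp1 and Sox9, had overlapping control and Trsp knockout levels.

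Other genes of the cell cycle, on lists that hold none of the 40, showed the same split of the livers. The mean log2 level of 33 tested G2 and M phase genes was 6.84 and 6.80 in Trsp knockout replicates 3 and 4 and 5.11 and 4.47 in replicates 1 and 2. Of 30 S phase genes, 25 were below 0 in Trsp knockout against control with a median of -0.161, and 25 in Keap1 mutant against control with a median of -0.322. None of these lists had a called gene in the 4 comparisons or in the interaction. Among the S phase genes, Orc1, the origin recognition subunit, was nearest to a call in Trsp knockout against control at -1.30 (-2.06 to -0.54, limma adjusted p = 0.17), and Dut, which removes dUTP, in compound mutant against Keap1 mutant at -0.45 (limma adjusted p = 0.38), or -0.48 without the library with Xist reads. Pttg1, securin, was nearest among the G2 and M phase genes in both knockout comparisons, at 0.19 and 0.23, and Cit, the citron kinase, among 7 cytokinesis genes at -0.25 and -0.31. Without that library the values against Keap1 mutant were 0.17 for Pttg1 and -0.53 for Cit.

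Of 6 G1 cyclins and kinases none was called. Ccnd1 and Ccnd2 are D-type cyclins, which bring cells into G1. Ccnd1 differed by -1.01 in Trsp knockout against control (-1.658 to -0.365, limma adjusted p = 0.2). Its mean log2 level was 10.13 in control, 9.12 in Trsp knockout, 9.89 in Keap1 mutant and 9.53 in compound mutant livers. Ccnd2, with the lower p-value, had log2 levels of 9.82, 9.72, 9.53 and 9.48 in control and 8.56, 8.57, 9.16 and 8.50 in Trsp knockout livers. The groups did not overlap, where 2.62% of all genes were lower without overlap. The difference was -0.94 (-1.31 to -0.56, limma adjusted p = 0.020), short of a call, and it ranged from -1.09 to -0.80 over 28 alternatives, with a call in 1. On the Keap1 mutant background it was 0.03 (limma adjusted p = 0.97), or -0.01 without the library with Xist reads. In Trsp knockout replicates 3 and 4 Ccnd2 was below every control liver, whereas the mean level of the members was above every control liver. Cdk6, the G1 kinase, was lowest in p on the Keap1 mutant background at -0.33 (limma adjusted p = 0.36), or -0.28 without that library.

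No inhibitor, regulator or p53 target on the lists was called in any of the 4 comparisons. Cdkn1a, the inhibitor p21, named after its values were seen, had log2 levels of 9.16, 8.32, 7.71 and 8.44 in control, 7.89, 7.12, 8.61 and 8.60 in Trsp knockout, 8.64, 9.64, 9.11 and 10.44 in Keap1 mutant, and 9.80, 9.34, 9.89 and 8.31 in compound mutant livers. It differed by 1.05 in Keap1 mutant against control (0.11 to 1.99, limma adjusted p = 0.50, from 0.36 to 1.47 over 28 alternatives). In compound mutant against Trsp knockout livers it differed by 1.28 (0.34 to 2.22, limma adjusted p = 0.15, from 0.78 to 1.62 over 28 alternatives) and by 1.12 without the library with Xist reads. Both intervals lay above 0 and both pairs of groups overlapped, and in these comparisons the medians of the members were -0.515 and -0.485. Within genotypes the libraries did not show this opposite direction. The lowest Cdkn1a and the lowest member level fell in the same library in Trsp knockout, Keap1 mutant and compound mutant livers. In control livers the highest of both was in replicate 1. A relation between Cdkn1a and the members was not tested. Cdkn1c, the imprinted inhibitor p57, differed by 0.29 in Trsp knockout against control (-0.02 to 0.59, limma adjusted p = 0.48) and by 0.40 in Keap1 mutant against control (0.10 to 0.70, limma adjusted p = 0.39). It differed by -0.45 in compound mutant against Keap1 mutant (-0.75 to -0.15, limma adjusted p = 0.16) and by -0.33 in compound mutant against Trsp knockout livers (-0.64 to -0.03, limma adjusted p = 0.23). Without the library with Xist reads the last pair were -0.43 and -0.32.

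Of 18 E2F, RB and MuvB regulators, Rbl2, p130, which holds cells in quiescence, had the lowest p-value in Trsp knockout against control at 0.43 (0.11 to 0.75, limma adjusted p = 0.27). In compound mutant against Trsp knockout livers Rbl2 differed by -0.58 (-0.90 to -0.26, limma adjusted p = 0.06) and by -0.53 without the library with Xist reads. E2f6, a repressor, had the lowest in compound mutant against Keap1 mutant at 1.77 (0.51 to 3.03, limma adjusted p = 0.19) and was at 1.67 without that library. Of 14 p53 targets, Ccng1 had the lowest in Trsp knockout against control at -0.52 (-0.94 to -0.09, limma adjusted p = 0.33), and Plk2 in compound mutant against Keap1 mutant at 0.71 (0.20 to 1.22, limma adjusted p = 0.20) and at 0.67 without that library. These intervals exclude 0 before adjustment, and none of the differences passed it.

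The 10 genes outside the lists whose level was most like the mean of the members over the 16 libraries, by Pearson r, were Stmn1 (0.982), Kntc1 (0.981), Knl1 (0.978), Ckap2l (0.977), H2ac4 (0.974), Iqgap3 (0.969), Aspm (0.967), H3c3 (0.967), H3c1 (0.963) and H2ac10 (0.961). Stmn1 binds tubulin, Kntc1 and Knl1 belong to the kinetochore, Aspm to the spindle poles, and H2ac4, H2ac10, H3c1 and H3c3 are replication-dependent histones, whose transcripts are made in S phase and lack a poly(A) tail. Stmn1 had log2 levels of 9.19 and 9.28 in Trsp knockout replicates 3 and 4, against 7.13 and 6.66 in replicates 1 and 2. Of the 40 most alike genes 13 were histone genes. Near-identical copies of histone genes can share reads, so single histone genes are uncertain. A list of 58 tested histone genes of this kind, made after these values were seen, had a median r of 0.89, and 43 of them had an r over 0.8, where 1.67% of all tested genes had. Their mean log2 level was 6.27, 5.67, 7.82 and 7.76 in Trsp knockout replicates 1 to 4 and 6.09 in compound mutant replicate 4. At the other end, Mat1a, the hepatocyte enzyme that makes S-adenosylmethionine, had an r of -0.912, with log2 levels of 16.79 and 17.00 in Trsp knockout replicates 1 and 2 and 15.80 in replicates 3 and 4.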

How the data were processed

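RNA from 16 livers was rRNA-depleted by the authors, made into directional libraries and sequenced with paired reads of 150 bases. Per the study's methods, the authors quantified transcripts with Salmon quant (Galaxy version 1.5.1) against GENCODE mouse version 30 and processed the table in iDEP. The deposited values are log2 values of the normalized count plus 4, as made by the authors from estimated counts. All low values (up to 100 reads, within 0.05) gave whole reads, from which 11386715 to 19164113 reads per library (median 15509636) were recovered. The size factors were median-of-ratios factors. Of 18578 table entries, 369 named no gene and held 0.274 to 0.627% of the reads. They were left out.

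Genes that reached a normalized count of 10 in 4 or more libraries were tested with limma 3.58.1 (R 4.3.3, lmFit and eBayes with trend, no block) over all 16 libraries with a mean per genotype, and p-values were adjusted by Benjamini-Hochberg over all genes. The fold changes are on the log2(count + 4) scale and understate changes of low genes. Other steps used Python 3.11.15, pandas 2.3.3, numpy 2.4.6, scipy 1.17.1 and matplotlib 3.10.9. Fitting was tested on simulated data. Correlations with markers used 100000 permutations, two-sided. Promoter sequences were from RefSeq (GRCm38.p6). Intervals of a count of 0 cover counting error only.

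The 40 members and all gene lists were chosen with earlier results of these data known, so their counts are no independent evidence. Genes named were index members of each role, the highest and lowest member of each comparison, the 2 most abundant genes of each marker list, the gene with the lowest p-value in each list of other cell cycle genes for both knockout comparisons, and the 10 genes most alike. Kif2c, Cdkn1a, Sptb, Rag1, Mat1a, Mcm7, the promoters shown, and other genes outside that rule were chosen after their values were seen. Alternatives were other constants, filters, scalings and thresholds, limma voom, blood content as a covariate, a replicate block, groups fitted alone and leaving out each library.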

Additional observations from a re-analysis of the deposited data

Results flagged for a closer look

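Single libraries were compared with the other 3 of their genotype by Dixon's criterion at 95%. Of 160 groups of 4 for single members 19 stood out, where chance gives about 8 (1 in 20), and of 76 groups for list means 5 did. Since the members vary together, these are not separate events. Compound mutant replicate 4 was low for 14 members, on the log2 scale. For the early genes the level was 6.66 for Mcm5 and 2.0 for Gins2, where the nearest other libraries were at 7.75 and 5.08. For the cyclins it was 4.95 for Ccna2, 3.59 for Ccnb1, 3.91 for Ccnb2 and 4.32 for Cdk1. For the mitotic kinases it was 3.59 for Aurkb and 3.81 for Plk1. For the spindle genes and Top2a it was 4.39 for Kif20a, 4.09 for Cenpe, 4.0 for Cenpf, 4.64 for Tpx2, 3.91 for Prc1 and 6.56 for Top2a. The mean level of all members in that library was 5.28, where the next was 6.67, that of other G2 and M phase genes 4.42 and that of cytokinesis genes 4.35.

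Other libraries stood out for single genes. Keap1 mutant replicate 4 was high for Mcm4 at 8.18, and Keap1 mutant replicate 1 was low for Bub1 at 4.64 and Cenpe at 5.28. Compound mutant replicate 2 was high for Cdc6 at 5.01, and control replicate 4 was low for Cenpf at 6.34. Among the marker lists, the erythroid mean of Keap1 mutant replicate 1 was low at 6.81 and the immature hepatocyte mean of Trsp knockout replicate 1 was low at 5.85.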

How the results depend on the processing

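No member was called under any of 149 alternatives that gave a count. The direction of single members was less firm: of 530 alternatives for 19 pairs of gene and comparison, 15 changed the sign. With the erythroid level as a covariate, the difference of Trsp knockout from control became 0.022 for Mki67, 0.214 for Cdk1 and -0.254 for Tk1, and with the B cell level that of Keap1 mutant from control became 0.463 for Tk1. In each case the groups compared did not overlap in the covariate, so these fits cannot separate it from genotype. The cause was not tested. Leaving out 1 library at a time gave -0.92 to 0.061 for Mki67 and -0.892 to 0.152 for Cdk1 in Trsp knockout against control. It gave -0.602 to 0.057 for Mki67 in compound mutant against Keap1 mutant, -0.157 to 0.07 for Tk1 in Keap1 mutant against control and -0.938 to 0.071 for Mki67 in compound mutant against Trsp knockout. The median of the members went from -0.692 to -0.325 in Keap1 mutant against control and kept its sign there. Library totals in place of size factors moved the median of all genes by 0.120 in compound mutant against Keap1 mutant, where that of the members was then -0.062, and by 0.128 in compound mutant against Trsp knockout, where it was -0.361.

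The replicate numbers did not pair the mice: same-numbered libraries had correlations of -0.315 to 0.31 over 24 pairs, 4 of them over 0.1, and 2 of 16 libraries correlated best with one of their own number. With a replicate block the medians stayed at -0.339, -0.185, -0.515 and -0.485, as follows from the balanced design, and 0 members were called. Low counts limit single libraries, with 0 reads for Gins2 and 1 for Kif2c as the lowest; counting error and the spread between mice were not compared.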
